A study of Mus musculus with 6 samples.

Results

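The serpin genes are the members of the serine protease inhibitor superfamily whose symbols carry a clade letter from a to i, a number and at most 1 further letter. Of the 23366 gene symbols counted in the mouse small intestine epithelium, 62 followed this pattern. Members were chosen by symbol, but the family itself was selected on the normalized counts and log2 fold changes (log2FC) of mutant against wild type libraries, which were known when it was put forward. Levels, log2FC and calls of the serpins in that contrast are therefore given as a description, with no test of the family. Adjusted p-values are printed only for genes outside the family. The lists of such genes were also chosen with earlier results known, so their choice was not independent of these data.

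The study asked what the WNT pathway transcription factor TCF7L1 does in the developing gut. RNA of sorted EpCAM+ epithelium from E13.5 small intestines was compared between *Shh-cre-egfp:Tcf7l1 lox/lox* embryos (mutant, n = 3 libraries) and wild type embryos (n = 3 libraries). Each library came from 500 sorted cells and 15 cycles of cDNA amplification. The Cre is expressed from the *Shh* gene and recombines loxP sites around an exon of *Tcf7l1* in the gut epithelium, and no group with Cre alone or with unrecombined lox alleles was analysed here. Neither group was treated. The labels do not say whether the libraries of a group came from separate embryos, so p-values measure the spread between these libraries only.

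Serpins share a fold in which an exposed reactive centre loop acts as bait for a protease. Cleavage of the loop makes an inhibitory serpin change shape and traps the protease covalently, and the residues of the loop decide which protease is caught. Clade A proteins are mostly secreted by the liver, and alpha-1-antitrypsin, encoded by *Serpina1*, restrains neutrophil elastase. Clade B proteins stay mostly inside cells and guard against granule and lysosomal proteases. The remaining clades hold inhibitors of clotting, fibrinolysis and complement, as well as members that inhibit nothing, such as the collagen chaperone HSP47 encoded by *Serpinh1*. In mice *Serpina1* has been duplicated into a tandem array, and the number of copies is known to differ between strains.

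The 5 *Serpina1* copies are *Serpina1a* to *Serpina1e*, and all of them lay on the minus strand of chromosome 12 in the mm9 build. Each had a coding sequence of 1242 bases, and pairs of copies were between 96.3% and 98.5% identical. *Serpina1a* and *Serpina1c* were the closest pair, with 19 differing bases, while *Serpina1b* and *Serpina1e* differed at 46 bases. Only 86 of the 1242 aligned coding bases varied between any copies, and these were unevenly placed. The 60-base window with the most variable bases held 18 of them, against a median of 4 over all such windows. This window covered coding bases 1101 to 1160 in exon 5 of 5. It began inside the hinge motif of the reactive centre loop, whose coding sequence starts at base 1090, and ran on past it. It is shown for each copy because variable bases were densest there, although most of them lay elsewhere in the coding sequence. Sequences run 5′ to 3′ on the coding strand, and capitals mark the bases that vary between copies.
Serpina1a: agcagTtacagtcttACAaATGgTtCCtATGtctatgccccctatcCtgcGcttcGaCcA
Serpina1b: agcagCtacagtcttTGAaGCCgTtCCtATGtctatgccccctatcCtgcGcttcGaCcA
Serpina1c: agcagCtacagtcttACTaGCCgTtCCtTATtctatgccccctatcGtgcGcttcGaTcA
Serpina1d: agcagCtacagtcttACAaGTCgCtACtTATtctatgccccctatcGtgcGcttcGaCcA
Serpina1e: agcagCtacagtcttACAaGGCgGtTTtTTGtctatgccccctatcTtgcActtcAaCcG
In mm9 these windows lie at chr12:105091967-105092026 for *Serpina1a*, chr12:104966534-104966593 for *Serpina1b*, chr12:105133304-105133363 for *Serpina1c*, chr12:105001972-105002031 for *Serpina1d* and chr12:105185310-105185369 for *Serpina1e*.

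The likeness of the copies bears on the counts, since only uniquely mapping reads of 84 bases were counted. Of the 84-base windows along the annotated transcripts, 71.9% were unique to *Serpina1b* among coding transcripts. The share was 69.0% for *Serpina1d*, 55.3% for *Serpina1a* and 37.2% for *Serpina1c*, the lowest of the copies. *Serpina1e* had the highest share, 82.2%. Outside the array, every serpin that entered the test had 100% unique windows, except *Serpini1* with 99.5%. Levels of the copies are thus lower bounds to a degree that differs from copy to copy but is the same in each library, provided that the embryos carried the copies of the mm9 reference. The strain background of the embryos is not given in the sources used here, and whether the array differed between the groups was not tested.

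The libraries held between 18216537 and 20397278 counted reads. Normalized counts are counts scaled by the TMM method to a common depth of 19474469 reads. A gene was called when edgeR's quasi-likelihood test gave an adjusted p (Benjamini-Hochberg) under 0.01, its log2FC was at least 0.5 in size and its mean normalized count was at least 50. Of 12501 tested genes, 5.83% were called lower and 2.78% higher in mutant libraries (8.62% in all), with a median log2FC of -0.04. *Tcf7l1* had 475, 473 and 363 normalized counts in wild type and 41.3, 32.9 and 72.8 in mutant libraries, a log2FC of -3.16 ± 0.26 (SE, adjusted p = 4.2e-07 by edgeR). These counts cover the whole gene and not only the deleted exon. *Shh*, the gene that carries the Cre, was also called lower. It had 411, 541 and 488 normalized counts in wild type and 185, 223 and 183 in mutant libraries (log2FC -1.28 ± 0.17, SE, adjusted p = 6.1e-05 by edgeR). Without a group with Cre alone, effects of the Cre allele and of *Tcf7l1* loss cannot be told apart. All 4 Y-linked genes examined had counts in every wild type library and 0 in every mutant library, while *Xist* was counted in 3 of 3 mutant and 0 of 3 wild type libraries. Embryo sex and genotype therefore cannot be told apart. The epithelial markers *Epcam*, *Cdh1*, *Cldn7*, *Krt8*, *Krt18*, *Krt19*, *Cdx2* and *Vil1* were detected, with summed normalized counts of 155754 to 165879 in wild type libraries and 151102 to 154981 in mutants, and *Cdh1*, *Krt18* and *Cdx2* were called lower. Of the uncalled ones, *Epcam* (log2FC 0.25 ± 0.07, SE) and *Cldn7* (0.24 ± 0.06) had higher values in mutant libraries. *Krt19* (-0.49 ± 0.06), *Krt8* (-0.32 ± 0.06) and *Vil1* (-0.06 ± 0.10) had lower values. The sum thus covers markers that differed in opposite directions. In bulk RNA, fewer cells of a type and less RNA per cell cannot be told apart.

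Of the 62 serpins, 32 were not detected in this epithelium. They had 0 counts in all 6 libraries, which allows at most 3 counts per library or 0.147 to 0.165 CPM (counts scaled to the depth of the library). These were 14 of 24 clade A genes, among them most *Serpina3* copies, *Serpina5* and *Serpina7*, 17 of 27 clade B genes, and *Serpini2*. The other 30 were detected, meaning that any library held a read. Of these, 20 had enough counts to be tested, and 12 reached a mean normalized count of 50. A serpin could pass these filters through either group alone. The 10 detected but untested genes had between 0 and 28 counts in a library and included antithrombin (*Serpinc1*) and heparin cofactor II (*Serpind1*). Among them, *Serpina1f*, *Serpina3h*, *Serpina3m*, *Serpinb1b* and *Serpinb9f* never exceeded the limit of 3 counts in a library. The clade C and D levels, each from its only member, were 0.07 RPKM for *Serpinc1* and 0.06 RPKM for *Serpind1* in wild type, where RPKM is the read count scaled to depth and to the length of a gene's merged exons in kilobases.

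**Figure D1:**
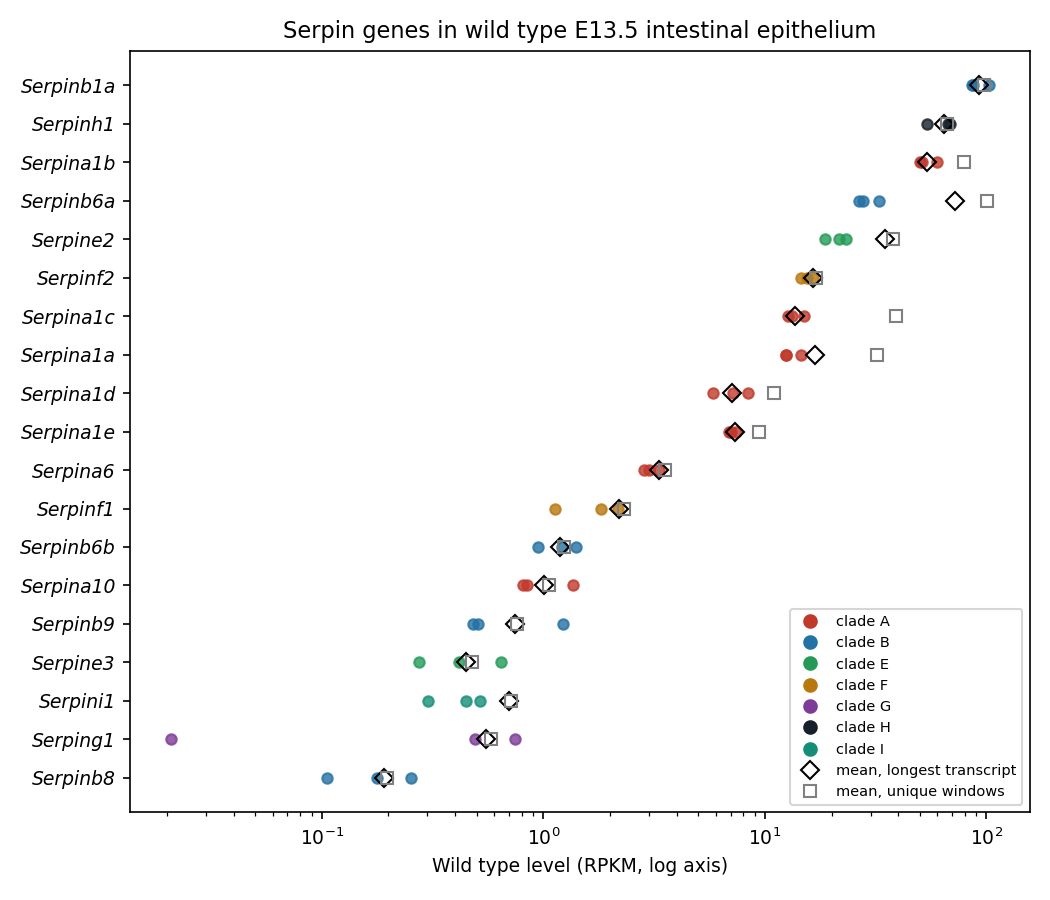
Wild type level (RPKM, log axis) of the tested serpins with a level above 0 in all 3 libraries, 1 circle per library, coloured by clade. Diamonds give the mean with the longest transcript as length and squares the mean with 84-base windows unique among transcripts as length. *Serpinb1a* (85.7 to 103), *Serpinh1* and *Serpina1b* stand at the top with merged exons as length, and *Serpinb6a* takes rank 1 with unique windows as length.

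In wild type libraries, RPKM values over all serpins summed to 325 ± 12.4 (SD, n = 3). Clade B held 37.9% of this sum, clade A 30.4%, clade H 19.4%, clade E 6.65% and clade F 5.29%. The other clades together contributed little, since each of their members had a mean below 0.5 RPKM. The median level over 11790 tested genes with a known length was 6.59 RPKM.

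The highest level belonged to *Serpinb1a*, an intracellular inhibitor of elastase, cathepsin G and proteinase 3, with 85.7, 87.0 and 103 RPKM in wild type replicates 1, 2 and 3. *Serpinh1* followed with 66.7, 68.3 and 53.9 RPKM. *Serpina1b*, the most abundant *Serpina1* copy, had 51.3, 49.9 and 59.8 RPKM, so its range overlapped that of *Serpinh1* but not that of the next gene. These 3 genes lay above 92.2%, 88.3% and 86.3% of the tested genes, respectively.

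*Serpinb6a*, which inhibits cathepsin G, took rank 4 with 27.9, 26.7 and 32.9 RPKM. Its rank depended on the length used, because its merged exons of 5409 bases are longer than its longest transcript of 2191 bases. With the longest transcript it reached 71.9 RPKM and rank 2, and with unique windows it reached 100.3 RPKM, above the 97.2 RPKM of *Serpinb1a*. Exons of genes on the opposite strand (*1110046J04Rik*, *Nqo2* and *Ripk1*) covered 22.8% of its exon bases, and the sources used here do not say whether counting used strand.

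*Serpine2* (protease nexin 1, an inhibitor of thrombin and plasminogen activators) had 23.2, 18.6 and 21.5 RPKM. *Serpinf2*, which encodes the plasmin inhibitor alpha-2-antiplasmin, had 16.4, 15.5 and 14.5 RPKM and overlapped in range with *Serpina1c* (15.1, 12.7 and 13.2 RPKM). *Serpina1a* (12.4, 12.5 and 14.6 RPKM) could not be set apart from *Serpina1c* either. *Serpina1d* (7.17, 5.86 and 8.38 RPKM) and *Serpina1e* (7.40, 7.03 and 6.90 RPKM) overlapped and lay close to the middle of the tested genes, with 51.6% and 51.5% of them lower. No further serpin exceeded 4 RPKM in any wild type library, and the highest of them was the corticosteroid-binding globulin gene *Serpina6* at 3.05 ± 0.25 RPKM (SD, n = 3).

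The 5 *Serpina1* copies therefore took ranks 3, 7, 8, 9 and 10 among the serpins of the wild type epithelium. Together they gave 29.1% ± 1.21 (SD, n = 3) of the summed serpin RPKM. The share was 25.3% with the longest transcript as length and 34.1% with unique windows as length. On the unique-window scale *Serpina1c* rose from 13.6 to 39.0 RPKM and *Serpina1a* from 13.2 to 32.1 RPKM, which placed them at ranks 5 and 7. *Serpina1b* stayed the highest copy on each of the 3 length scales.

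In mutant libraries, 8 of the 20 tested serpins were called lower and none was called higher. Over all tested genes, 5.83% were called lower, 2.78% higher and 8.62% in either direction, and since the family was chosen with this contrast in view, nothing is read from the difference. In edgeR's quasi-likelihood test 9 serpins were lower and 1 higher at an unadjusted p under 0.05, and DESeq2 called 8 lower and 0 higher. Over all genes, 5033 of 12501 tested had an unadjusted p under 0.05 in edgeR's test, in either direction. DESeq2 called 785 genes lower and 407 higher in all. The serpin counts describe the same values that put the family forward, and they give it no further support. The called genes were the 5 *Serpina1* copies, *Serpine2*, *Serpinf2* and *Serpinh1*. The median log2FC over the 20 tested serpins was -0.66, against -0.04 over all tested genes. By clade, 5 of 7 tested clade A genes, 0 of 6 clade B genes, 1 of 2 clade E genes, 1 of 2 clade F genes and the only clade H gene were called lower. *Serping1* and *Serpini1*, the only tested members of clades G and I, were not called.

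**Figure D2:**
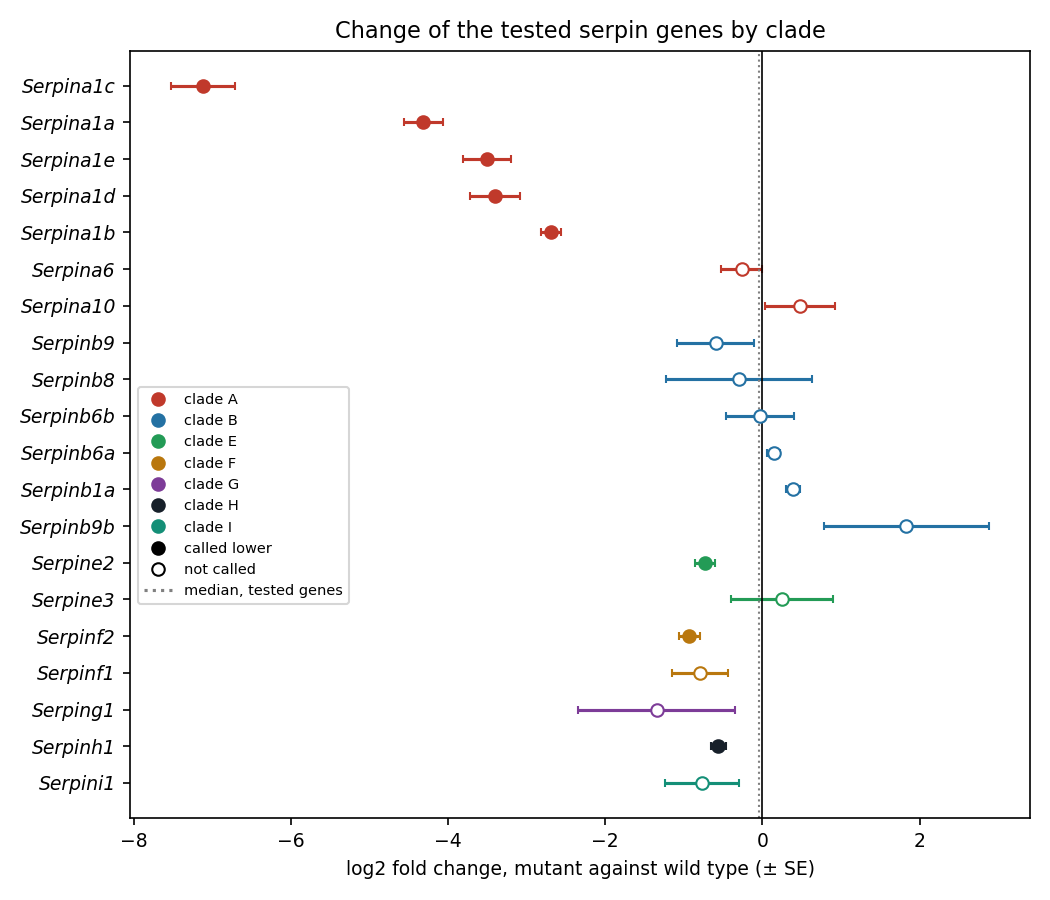
log2FC (mutant against wild type, bars ± SE) of the 20 tested serpins, ordered within clades. Filled points were called lower and open points were not called. The 5 *Serpina1* copies lie between -7.12 and -2.69, and no other serpin lies below -1.35. The dotted line is the median of all tested genes, -0.04.

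The make-up of the family differed accordingly. Serpin RPKM summed to 325 in wild type libraries and to 234 in mutants. Clade A held 30.4% of this sum in wild type libraries but 6.13% in mutants. Clade B held 37.9% in wild type libraries and 65.9% in mutants, while its summed level was 123 and 154 RPKM. Clade H kept nearly the same share (19.4% and 18.2%), although its only member was called lower.

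*Serpina1b* had 1393, 1355 and 1624 normalized counts in wild type replicates 1 to 3 and 195, 236 and 246 in mutant replicates 1 to 3. The groups were far apart, and the log2FC of -2.69 ± 0.13 (SE) was the smallest change of the 5 copies. Mutant levels were 15.5% of wild type (exact 95% interval from 14.2 to 16.8%, which covers counting error only, as do the intervals below).

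*Serpina1d* had 195, 159 and 228 normalized counts in wild type and 12.4, 20.2 and 22.1 in mutant libraries (log2FC -3.41 ± 0.32, SE). *Serpina1e* had 233, 221 and 217 in wild type and 16.5, 13.8 and 28.7 in mutant libraries (log2FC -3.50 ± 0.30, SE). These were the least abundant copies in wild type, and their changes differed by less than their SE. Mutant levels were 9.36% (6.89 to 12.5%) and 8.73% (6.51 to 11.5%) of wild type.

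*Serpina1a* had 547, 550 and 644 normalized counts in wild type and 43.4, 24.4 and 18.8 in mutant libraries, with a log2FC of -4.32 ± 0.25 (SE). Mutant levels were 5.02% (3.98 to 6.27%) of wild type. Mutant 1 was the highest for *Serpina1a* but the lowest for *Serpina1b* and *Serpina1d*.

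*Serpina1c* was almost lost. It had 400, 336 and 350 normalized counts in wild type libraries, and 5, 2 and 0 reads were counted in mutant replicates 1, 2 and 3. The log2FC was -7.12 ± 0.41 (SE), the largest fall among the serpins, and mutant levels were 0.687% (0.276 to 1.42%) of wild type. At so few reads the fold rests on single libraries, and without mutant 1 the log2FC was -8.23. Exons of *B430119L08Rik* on the opposite strand covered 31.5% of the exon bases of *Serpina1c*, and reads from the opposite strand could not be told apart.

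**Figure D3:**
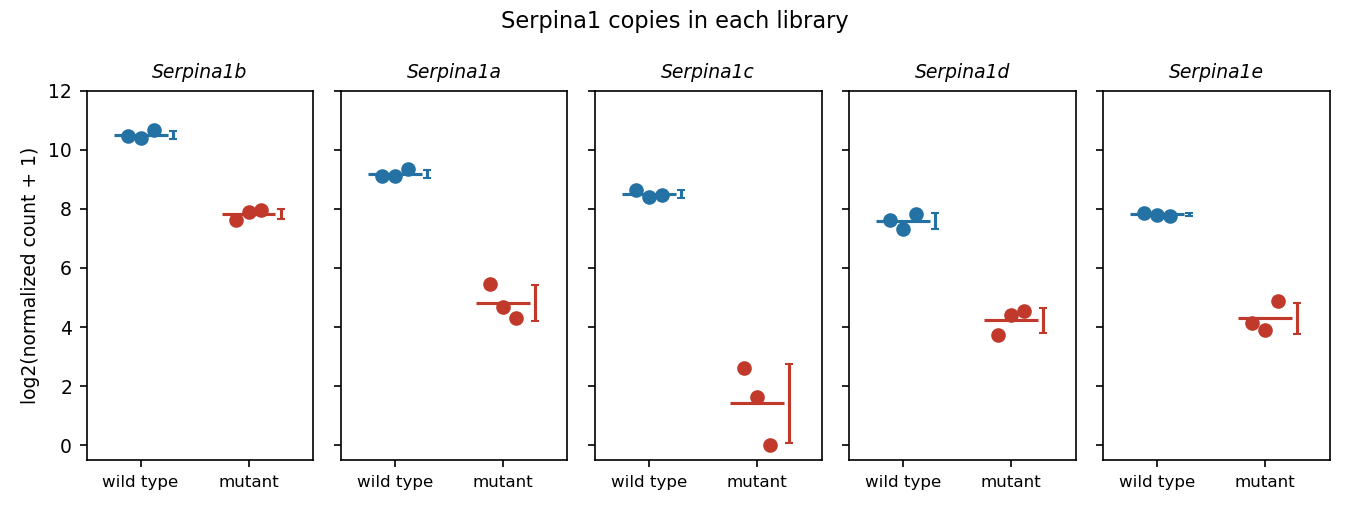
Normalized counts of the 5 *Serpina1* copies on a log2(count + 1) axis, 1 point per library, with the mean (line) and SD (bar) of the log2 values of 3 libraries per group. The groups did not overlap for any copy, and the 3 mutant libraries were most spread for *Serpina1c*, which had 0 reads in mutant 3.

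Summed as 1 feature, the copies had 2817 ± 225 normalized counts in wild type and 295 ± 21.5 in mutant libraries (SD, n = 3 each). The log2FC of the sum was -3.26 ± 0.11 (SE), ranging from -3.31 to -3.18 when each library was left out in turn. Mutant levels of the sum were 10.5% (9.73 to 11.2%) of wild type. A read that the copies share was not counted for any of them, and the sum does not bring it back.

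The copies did not fall in proportion. *Serpina1b* reads were 50.3% to 53.0% of the reads of the 5 copies in wild type libraries and 71.6% to 79.6% in mutant libraries. *Serpina1c* reads were 11.4% to 14.4% in wild type libraries and 0 to 1.89% in mutants. The share of *Serpina1a* was 19.8% to 21.0% in wild type libraries and 5.94% to 15.9% in mutants. For these 3 copies the groups did not overlap. The shares of *Serpina1d* (mean 6.84% in wild type and 6.12% in mutants) and *Serpina1e* (mean 7.98% and 6.60%) overlapped between the groups. *Serpina1b*, the highest copy in wild type, changed least.

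**Figure D4:**
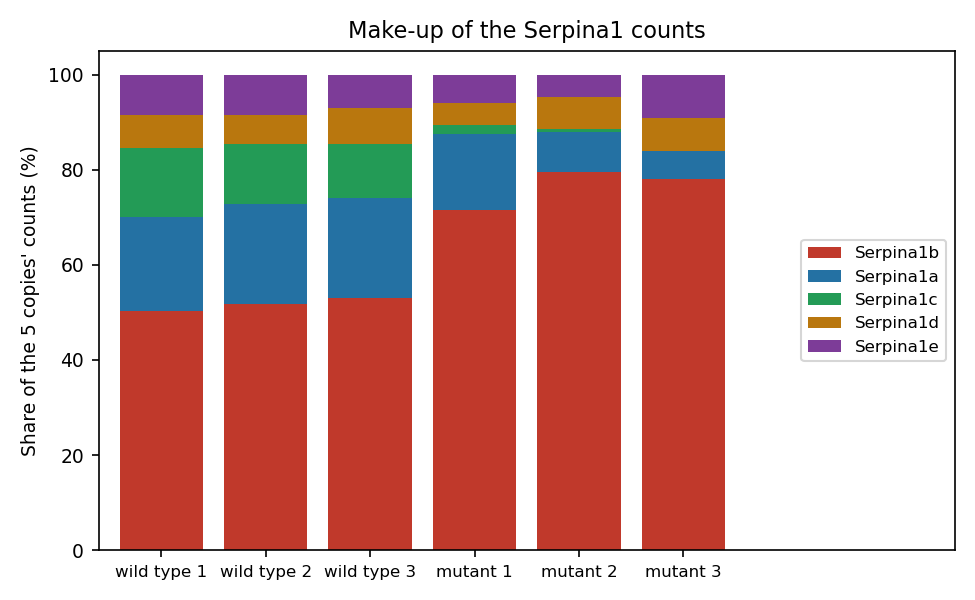
Share of each *Serpina1* copy in the reads counted for the 5 copies (%), 1 bar per library. *Serpina1b* made up 51.7% on average in wild type and 76.4% in mutant libraries, and *Serpina1c* 12.9% and 0.87%.

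*Serpina1f*, a further symbol of the array, was not detected in wild type libraries, and 2, 1 and 1 reads were counted in mutant replicates 1 to 3. This is at or below the limit of 3 counts, and no change is given. *Serpina6* and *Serpina10*, which lie just before the array, were not called. *Serpina6* had 97.3, 102 and 114 normalized counts in wild type and 93.0, 78.6 and 89.4 in mutant libraries. The groups did not overlap, and the log2FC was -0.26 ± 0.26 (SE). *Serpina10*, which encodes an inhibitor of clotting factor Xa, had a log2FC of 0.48 ± 0.45 (SE) with overlapping groups.

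The other 3 called serpins changed far less than the *Serpina1* copies. *Serpinf2* had 744, 700 and 658 normalized counts in wild type and 393, 364 and 345 in mutant libraries. All mutant libraries lay below all wild type libraries, and the log2FC was -0.93 ± 0.13 (SE). Its neighbour on chromosome 11, *Serpinf1*, which encodes the non-inhibitory pigment epithelium-derived factor, had 100, 52.1 and 83.5 normalized counts in wild type and 49.6, 39.3 and 46.4 in mutant libraries. The groups did not overlap, but the log2FC of -0.80 ± 0.36 (SE) was not called.

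*Serpine2* had 1734, 1388 and 1606 normalized counts in wild type and 891, 1132 and 829 in mutant libraries. The groups did not overlap, with mutant 2 the nearest to wild type, and the log2FC was -0.73 ± 0.12 (SE). *Serpine3* had at most 19 reads in a library and a log2FC of 0.25 ± 0.65 (SE).

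*Serpinh1* had 3164, 3241 and 2558 normalized counts in wild type and 2198, 1925 and 1956 in mutant libraries. Its log2FC of -0.56 ± 0.10 (SE) lay just inside the limit of 0.5, and the call was lost without wild type 2 (log2FC -0.50). HSP47 folds collagen and is abundant in mesenchymal cells. The 13 mesenchyme markers, which included *Col1a1*, *Col3a1*, *Vim* and *Pdgfra*, were all detected with summed normalized counts of 1432 to 1779 in wild type libraries and 1134 to 1785 in mutants. None of the 7 that were tested was called, but the sum covers markers that differed in opposite directions. *Col3a1* (log2FC -2.21 ± 0.70, SE), *Col5a1* (-0.97 ± 0.44), *Pdgfrb* (-1.45 ± 0.77), *Lum* (-0.97 ± 0.85) and *Vim* (-0.46 ± 0.11) had lower values in mutant libraries, like *Serpinh1*, and *Acta2* (1.52 ± 0.42) and *Tagln* (1.31 ± 0.41) had higher values. Of the untested markers, *Pdgfra* had 50 counts over the wild type and 1 over the mutant libraries, and *Dcn* had 86 and 16. The part of mesenchymal RNA in the *Serpinh1* result was not tested.

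The abundant clade B genes were not lower in mutant libraries. *Serpinb1a* had 3241, 3292 and 3881 normalized counts in wild type and 4076, 5048 and 4480 in mutant libraries. Every mutant library lay above every wild type library, but the log2FC of 0.39 ± 0.09 (SE) was below 0.5 in size, and the gene was just outside the call. *Serpinb6a* had 2935, 2809 and 3463 in wild type and 3274, 3450 and 3450 in mutant libraries. Its groups overlapped (log2FC 0.14 ± 0.08, SE). The 4 remaining tested genes of this clade, *Serpinb6b*, *Serpinb8*, *Serpinb9* and *Serpinb9b*, had at most 88 reads in any library and SE of 0.43 to 1.05 on the log2 scale, so that changes of the size seen for *Serpinb1a* were not detectable at this depth. All of their groups overlapped.

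The complement inhibitor gene *Serping1* had 36, 24 and 1 reads in wild type and 9, 12 and 0 in mutant replicates 1 to 3, with a log2FC of -1.35 ± 1.0 (SE). *Serpini1*, which encodes the plasminogen activator inhibitor neuroserpin, had 63, 73 and 42 reads in wild type and 14, 45 and 32 in mutant libraries (log2FC -0.77 ± 0.47, SE). Libraries of both groups overlapped for each of these genes.

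The called clade A genes lay side by side. Of the 62 serpins, 61 had a position in mm9, and 23, 15 and 11 of them formed clusters on chromosomes 12, 13 and 1. The chromosome 12 cluster spans chr12:104854885-105652539. Within it *Serpina1b* lies at chr12:104966366-104976368, *Serpina1d* at chr12:105001804-105011802, *Serpina1a* at chr12:105091799-105104137, *Serpina1c* at chr12:105133136-105143097 and *Serpina1e* at chr12:105185141-105197185. No other gene of the files had its middle between them. The 2 tested serpins before the array were not called, and of the 15 serpins after it none had more than 2 reads in a library.

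Of 27 non-serpin genes within 500 kb of a cluster, 20 were tested, and 0 were called lower and 1 higher, against 5.83% and 2.78% over all tested genes, with a median log2FC of -0.04. At an unadjusted p under 0.05 in edgeR's test, 3 were lower and 1 was higher, against 5033 of 12501 tested genes in either direction. DESeq2 called 0 lower and 1 higher, against 785 and 407 over all genes. The gene called higher, *Ifi27l2b* of the interferon-inducible Ifi27 group, lies before the *Serpina* cluster. It had 122, 111 and 113 normalized counts in wild type and 350, 343 and 389 in mutant libraries (log2FC 1.65 ± 0.18, SE, adjusted p = 8.3e-06 by edgeR), in the direction opposite to the *Serpina1* copies.

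**Figure D5:**
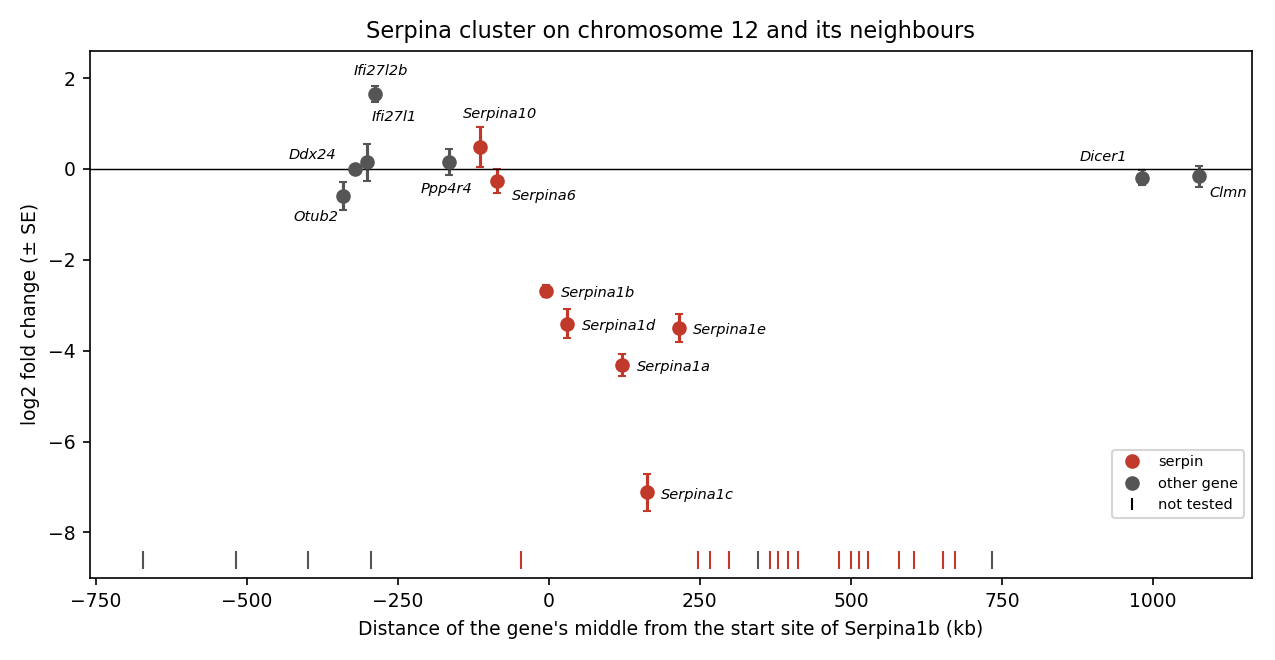
log2FC (mutant against wild type, bars ± SE) of genes in and around the *Serpina* cluster against the distance of each gene's middle from the start site of *Serpina1b* (kb). Ticks at the bottom mark genes that were not tested. The 5 *Serpina1* copies form a continuous group of low values, between *Serpina6* (-0.26) and the untested serpins, and *Ifi27l2b* lies at 1.65.

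The promoters of the copies are nearly alike as well. In RefSeq (GRCm38.p6) the 300 bases from 250 before to 50 after the start were between 91.7% and 98.4% identical in aligned bases. The promoters of *Serpina1b* and *Serpina1c*, on the minus strand, are shown since these copies had the smallest and the largest change. Capitals mark TGTTTNC, a motif of FOXA factors known from liver promoters.
Serpina1b (chr12:103738140-103738439): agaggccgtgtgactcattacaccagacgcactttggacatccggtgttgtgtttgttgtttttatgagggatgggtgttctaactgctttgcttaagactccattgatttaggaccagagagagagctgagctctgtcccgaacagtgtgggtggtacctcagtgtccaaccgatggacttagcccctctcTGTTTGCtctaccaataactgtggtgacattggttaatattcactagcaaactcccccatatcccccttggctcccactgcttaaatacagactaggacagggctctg
Serpina1c (chr12:103904901-103905200): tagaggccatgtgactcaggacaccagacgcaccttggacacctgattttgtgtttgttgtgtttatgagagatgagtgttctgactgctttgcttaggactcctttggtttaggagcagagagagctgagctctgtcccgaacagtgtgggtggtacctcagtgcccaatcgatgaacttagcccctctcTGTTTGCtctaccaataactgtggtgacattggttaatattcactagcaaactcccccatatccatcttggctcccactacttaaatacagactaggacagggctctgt
This motif occurred in the promoters of all 5 copies. Searched on both strands, it was found in 20.5% of 32851 promoters and in 14 of the 52 serpin genes that had a promoter sequence. The TCF/LEF motifs CTTTGAA and CTTTGAT were found in 5.14% and 3.73% of all promoters, in 4 and 3 serpins, and in none of the copies, and they cannot match at the same place. The HNF4 motif CAAAGNNCA was in 6.36% of all promoters, in 9 serpins and in none of the copies. Motifs of other factors were not searched. A match describes the letters only, and a missing one says nothing of a factor outside these windows.

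Of 16 genes for transcription factors of liver and gut endoderm, a list that holds the FOXA and C/EBP factors known from the *Serpina1* promoter in hepatocytes, 15 were tested, and 2 were called lower and 1 higher, against 5.83% and 2.78% over all tested genes, with a median log2FC of -0.21. *Foxa2*, a pioneer factor of endoderm, had 298, 270 and 288 normalized counts in wild type and 21.7, 56.3 and 33.1 in mutant libraries, and it fell by 2.94 ± 0.29 (SE, adjusted p = 3e-06 by edgeR) on the log2 scale. *Onecut2* fell from 1996 ± 235 to 1208 ± 157 (SD, n = 3 each, log2FC -0.72 ± 0.11, SE, adjusted p = 0.00025 by edgeR). *Cebpb*, a factor of the acute phase response, rose from 608 ± 16.9 to 923 ± 58.8 (SD, n = 3 each, log2FC 0.60 ± 0.11, SE, adjusted p = 0.0011 by edgeR), and this call was lost when libraries were scaled by their size only (log2FC 0.50). Whether any of these factors has a part in the levels of the *Serpina1* copies was not tested.

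Of 32 genes for proteins secreted by the liver, 30 were in the files and 16 were tested, of which 2 were called lower and 1 higher, against 5.83% lower and 2.78% higher over all tested genes. Their median log2FC was -0.08. In edgeR's test 3 were lower and 4 higher at an unadjusted p under 0.05, against 5033 of 12501 tested genes in either direction. *Fgb*, the fibrinogen beta chain, had 113, 91.2 and 101 normalized counts in wild type and 3.10, 8.5 and 5.52 in mutant libraries, and it fell by 4.13 ± 0.46 (SE, adjusted p = 1.1e-05 by edgeR) on the log2 scale. Its mean over all libraries is close to 50, so leaving out any wild type library took it below that minimum. *Ambp*, which encodes the protease inhibitor bikunin together with alpha-1-microglobulin, fell from 5173 ± 464 to 3429 ± 311 (SD, n = 3 each, log2FC -0.59 ± 0.09, SE, adjusted p = 0.00013 by edgeR). *Apoa4*, an apolipoprotein of chylomicrons, rose from 245 ± 56.8 to 467 ± 33.0 (SD, n = 3 each, log2FC 0.93 ± 0.18, SE, adjusted p = 0.0013 by edgeR).

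Except for *Afp* and *Fgb*, hepatocyte markers were at or near 0 in all libraries. *Ahsg* and *Kng1* had 0 counts, *Alb* and *Fgg* had 7 counts each over the wild type libraries and 0 over the mutant libraries, *Fga* had 3 and 0, and *Apoh* had 8 and 7. The 8 hepatocyte markers summed to 2605 to 3339 normalized counts in wild type libraries and 2214 to 2491 in mutants, nearly all of them from *Afp* (2855 ± 373 and 2358 ± 138, SD, n = 3 each), which was not called. The 7 stomach markers, all detected, summed to 458 to 481 normalized counts in wild type libraries and 110 to 140 in mutants, 1 of 4 tested was called lower, and *Sox2* had 30 counts in wild type and 0 in mutant libraries. The called gene, *Cldn18*, made up most of the wild type sum and fell by 2.81 ± 0.26 (SE, adjusted p = 1.8e-06 by edgeR) on the log2 scale. *Gkn2* (log2FC -1.84 ± 0.53, SE) and *Tff2* (-1.74 ± 0.51) also had lower values in mutant libraries but were not called, while *Gkn1* had a mean of 43.3 in both groups. The part of cells with stomach markers in the *Serpina1* result was not tested. The 9 pancreas markers summed to 5.58 to 20.6 and 7.44 to 14.5 normalized counts, with 6 of them at 0, including *Ptf1a* and *Ins1*. The 4 mesothelium markers, all detected, summed to 549 to 822 normalized counts in wild type libraries and 436 to 714 in mutants, and 1 of 2 tested, *Msln*, was called lower. *Upk3b*, the other tested marker, had a higher mean in mutant libraries (log2FC 0.39 ± 0.18, SE) and was not called. Markers of neural crest (169 to 171 and 143 to 221), blood (38.4 to 85.3 and 50.8 to 100.2) and endothelium (0 to 24.7 and 0 to 28.9) overlapped between the groups. Only 2 neural crest markers, 1 blood marker and 0 endothelium markers were tested, and none of the tested markers was called. Their part in the levels of the serpins was not tested.

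Of 50 listed proteases of the kinds that serpins inhibit, 18 were tested, and 1 was called lower and 1 higher, against 5.83% and 2.78% over all tested genes, with a median log2FC of -0.33. At an unadjusted p under 0.05 in edgeR's test, 7 were lower and 5 higher, against 5033 of 12501 tested genes in either direction. *St14*, the membrane protease matriptase, had 1568, 1638 and 971 normalized counts in wild type and 810, 539 and 818 in mutant libraries. It fell by 0.95 ± 0.18 (SE, adjusted p = 0.0014 by edgeR) on the log2 scale, and the call was lost without wild type 1 (log2FC -0.85) or wild type 2 (log2FC -0.81). *Plat*, the tissue plasminogen activator that *Serpine2* and *Serpini1* products can inhibit, had 339, 351 and 329 normalized counts in wild type and 626, 495 and 518 in mutant libraries. It rose by 0.69 ± 0.15 (SE, adjusted p = 0.0027 by edgeR) on the log2 scale, and the call was lost without wild type 1 (log2FC 0.68), without mutant 1 (log2FC 0.58) and with scaling by library size only (log2FC 0.58).

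Of 37 listed inhibitors outside the serpin fold, 34 were in the files and 20 were tested. Of these, 3 were called lower and 0 higher, against 5.83% and 2.78% over all tested genes, with a median log2FC of -0.04. At an unadjusted p under 0.05 in edgeR's test, 6 were lower and 4 higher, against 5033 of 12501 tested genes in either direction. DESeq2 called 3 lower and 0 higher, against 785 and 407 over all genes. *Timp2*, an inhibitor of matrix metalloproteases, fell from 636 ± 22.4 to 351 ± 71.1 normalized counts (SD, n = 3 each, log2FC -0.86 ± 0.16, SE, adjusted p = 0.00098 by edgeR). *Ambp* was the second. *Wfdc2*, a secreted protein with whey acidic protein domains, fell from 1530 ± 236 to 1040 ± 129 (SD, n = 3 each, log2FC -0.56 ± 0.12, SE, adjusted p = 0.0034 by edgeR). The *Wfdc2* call was lost without wild type 3 (log2FC -0.41), mutant 1 (log2FC -0.48) or mutant 3 (log2FC -0.53).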

How the data were processed

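RNA-sequencing libraries were made from sorted EpCAM+ cells of E13.5 small intestine (3 mutant and 3 wild type). The authors mapped reads of 84 bases with STAR 2.5.2b to mm9, used featureCounts 1.5.1 to count reads with a unique position per gene, and deposited raw counts. The submitters' processing notes also name deepTools and DESeq2 1.18.1. Groups were taken from the genotype label.

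Counts were fitted with edgeR 4.0.16 (R 4.3.3) over all genes with genotype as the only term, after filtering on low counts and TMM scaling. Of 17112 genes with at least 1 count, 12501 were tested. SE are the fitted log2FC divided by the root of the F statistic. The authors state an RPKM minimum of 50, which was kept as an alternative to the mean normalized count of 50. Positions, exon lengths and coding sequences came from GENCODE on the mm9 genome, coding sequences were aligned with MAFFT 7.526, and promoters came from RefSeq. Exact intervals used scipy 1.17.1.

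The members and the gene lists were chosen with earlier results of these data known. Named in full were the *Serpina1* copies and called serpins, the highest serpin of each clade, serpins with a mean of at least 50, *Tcf7l1*, *Shh*, and up to 4 called genes of each list in each direction. Alternatives were DESeq2 1.42.0, other scalings, filters and limits, a replicate block, other gene lengths, and leaving out each library. The fit was tested on simulated data. Some genes of the family and lists are not reported here by name.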

Additional observations from a re-analysis of the deposited data

How the results depend on the processing

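The 8 serpins called lower were the same genes with DESeq2, both other scalings, no filter or a filter of 50 raw counts, an adjusted p under 0.05, and when any library but wild type 2 was left out. Without wild type 2 *Serpinh1* dropped out, so that leaving out each library gave 7 to 8 lower and 0 higher. With a log2FC of at least 1, 5 serpins (the *Serpina1* copies) were called lower, and with a mean RPKM of at least 50 only 1, *Serpinh1*. With no minimum log2FC, 1 serpin, *Serpinb1a*, was called higher.

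Counts over all genes and lists moved more. With a log2FC of at least 1, 284 genes were called lower and 85 higher, against 729 and 348, proteases and other inhibitors 0, liver genes 1 lower and 0 higher, and factors 1 lower and 0 higher. With a mean RPKM of at least 50, the calls were 28 and 106, with proteases and factors at 0, liver genes at 1 lower and 0 higher, and neighbours at 0. With no minimum log2FC, 902 genes were called higher, 2 proteases and 4 factors lower, and 1 inhibitor higher. With an adjusted p under 0.05, 1178 genes and 2 proteases were called lower and 2 liver genes higher. Scaling by library size only gave 200 genes called higher, 3 proteases and 6 factors lower, and 0 of either higher. The filter of 50 raw counts gave 4 factors called lower. Leaving out each library gave 405 to 867 genes called lower (405 leaving out wild type 1, 406 for wild type 2, 463 for mutant 2) and 260 to 516 higher, 0 to 2 proteases lower and 0 to 1 higher, and 1 to 2 liver genes lower. The cause of these shifts was not tested, beyond what each limit removes by construction.

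The share of the *Serpina1* copies in wild type serpin RPKM was 29.1%, 25.3% with the longest transcript, 34.1% with unique windows, and 28.5% to 29.7% without each wild type library. Of the 20 tested serpins, *Serpinb8* (-1.99 to 0.28) and *Serpinb6b* (-0.49 to 0.23) changed sign in log2FC, each when a library was left out (*Serpinb8* 0.03 without wild type 1 and 0.28 without mutant 2, *Serpinb6b* 0.12 without wild type 3, 0.23 without mutant 1 and 0.08 without mutant 3). Both are low in counts and were never called.

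Same-numbered libraries of the groups shared only a number, with correlations of their deviations of 0.01, -0.04 and -0.02. With the replicate block, 8 serpins were called lower and 0 higher, and 691 genes lower and 339 higher. With 3 libraries per group the depth limited the low serpins most, as 10 detected members were too low to test.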
